A study of Mus musculus with 18 samples.

Results

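The livers described here are those of the 2 control arms of a study of HIRA loss in mouse liver. Wildtype mice that received a Cre virus (WT AAV Tbg-Cre, 6 mice) were compared with 6 HIRA fl/fl AAV ctl mice, which carried floxed Hira alleles and were given a virus that lacks Cre. These 12 libraries, of 18 in the series, were chosen by the genotype and virus in the submitters' labels. Hira is expected to be intact in both arms, so the comparison shows how far apart 2 controls lie.

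Each arm held 3 males and 3 females, with sex kept in the model. All 12 mice were injected retro-orbitally with AAV8 in 100 µl at 6 months of age, and whole liver was taken 12 months later. The WT AAV Tbg-Cre mice received AAV8 Tbg-Cre, in which the Tbg promoter, active in hepatocytes, drives the Cre recombinase. The HIRA fl/fl AAV ctl mice received AAV8 Tbg-MCS, which carries the same promoter and no Cre. Genotype and virus therefore changed together, and an effect of the floxed alleles or of the mouse colony cannot be told apart from an effect of Cre. The remaining 6 mice, HIRA KO, had the floxed alleles and the Cre virus together, and their levels are given only beside genes that differed between the controls.

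HIRA is a chaperone that places the histone variant H3.3 into chromatin outside of DNA replication. In the adult liver, hepatocytes make cholesterol and fatty acids under the control of the SREBP transcription factors, and burn fatty acids in mitochondria, peroxisomes and microsomes under the control of PPARα. Levels of these enzymes follow feeding, time of day and sex, and the liver also holds Kupffer cells and lymphocytes that respond to interferon.

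The counts summed to between 15233377 and 23011724 reads on genes per mouse, with a median of 20995950, and 20943 genes with at least 10 counts over the 12 mice were tested. Values are CPM, counts scaled to library size with edgeR's TMM factors (0.9076 to 1.072), and fold changes are log2 of WT AAV Tbg-Cre over HIRA fl/fl AAV ctl. In a PCA of the 500 most variable genes, sex accounted for 99.6% of the first component, which held 67.1% of the variance. The arms separated on the third component, which held 4.94%, with WT AAV Tbg-Cre from −12.1 to −1.95 and HIRA fl/fl AAV ctl from 0.907 to 20. The arm accounted for 66.7% of that component. HIRA fl/fl AAV ctl male replicate 3 stood apart, with counts in 18082 genes against 19473 to 21639 in the other 11 libraries. As a check of tissue, the summed level of 9 hepatocyte markers lay between 124000 and 167000 CPM in every mouse.

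Hira did not differ between the arms by edgeR's quasi-likelihood test. In males Hira was at 3.50, 5.46 and 7.84 CPM in HIRA fl/fl AAV ctl and at 7.20, 6.63 and 7.05 CPM in WT AAV Tbg-Cre. In females it was at 6.10, 7.36 and 5.91 CPM in HIRA fl/fl AAV ctl and at 4.99, 4.33 and 6.02 CPM in WT AAV Tbg-Cre. The arms overlapped in both sexes, and averaging the sexes left a difference in Hira of −0.01 on the log2 scale, with a standard error of 0.18 and an adjusted p of 1. The gene lies on chromosome 16 from 18877037 to 18970309 (mm10), and the counts cover all of it and all liver cells. Its partners and the other H3.3 chaperones were tested as a list. Of 14 genes tested from this machinery, including Ubn1, Cabin1, Asf1a, Daxx and Atrx, none passed the test in either direction, where 0.105% of all genes did, and their median log2 fold change was 0.04, against 0.01 over all genes. The smallest p in the list was that of Nasp, a histone H3 chaperone, with a log2 fold change of 0.27 (adjusted p = 0.572) and no overlap between the arms within either sex.

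Few genes separated the control arms over both sexes. With sex in the model, 22 genes passed an adjusted p of 0.05 in edgeR's quasi-likelihood test (0.105% of those tested), of which 8 were higher (0.0382%) and 14 lower (0.0668%) in WT AAV Tbg-Cre. Only 7 of them, or 0.0334% of the genes tested, also changed more than 2-fold, 2 higher and 5 lower. All 22 had the same sign in males and in females. In 14 of the 22 the arms did not overlap within either sex, as in 0.941% of all genes. In 5 of the 22 (Il1r1, Gm5724, Ppox, Pxdc1 and Gss) all 6 mice of one arm lay beyond all 6 of the other. The share of all genes that did so is not given here, and these 5 were already called on the same values. An unadjusted p under 0.05 was reached by 1675 genes, 8% of those tested. The number of calls depended on the fit. It was 61 without HIRA fl/fl AAV ctl male replicate 2, 14 without HIRA fl/fl AAV ctl male replicate 1 and 5 without WT AAV Tbg-Cre female replicate 2. It was 2 with all 18 libraries in the fit and 0 with no sex in the model. Larger counts came from DESeq2 (159), from a block for replicate number within sex (167) and from no filter other than 1 count (385). Il1r1, Ugt2b35, Dntt and BC049987 were the genes called without any 1 library. Of the 12 fits without 1 library, the call was lost in 9 for Il15ra, Aqp8 and AI463229, in 8 for Hist1h1c and Sh3pxd2a, in 7 for Dct, Cyp26a1 and Acacb, in 5 for Mvd and in 1 to 4 for the others.

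**Figure D1:**
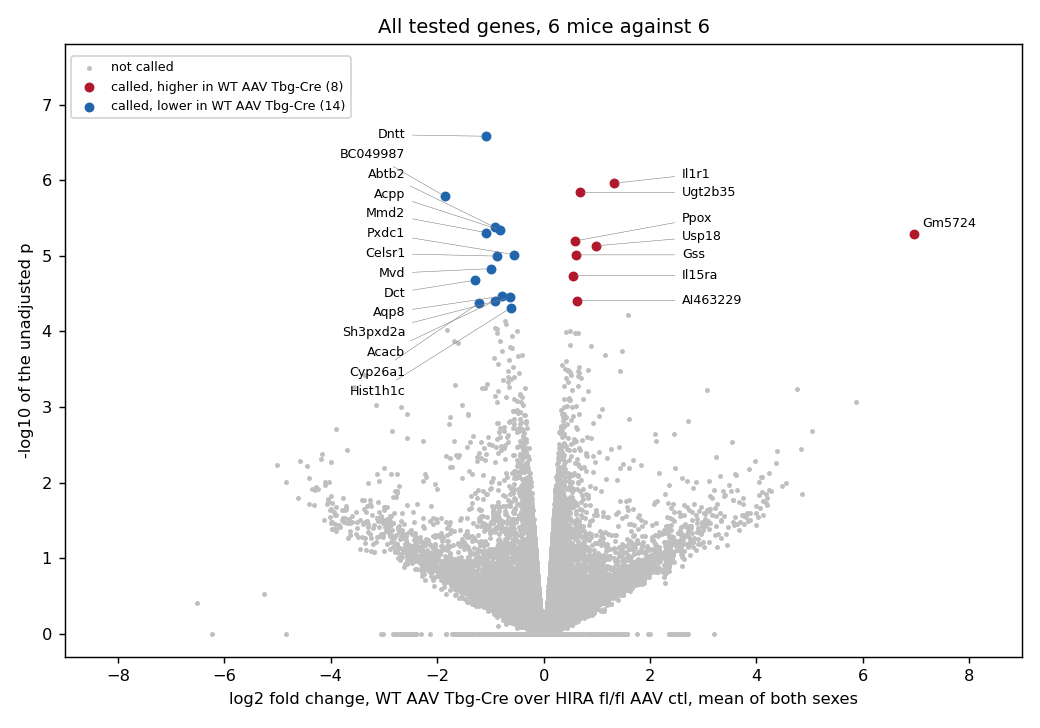
Log2 fold change over both sexes (horizontal) against −log10 of the unadjusted p (vertical) for all 20943 genes tested, with the 22 called genes coloured and named. The 14 lower genes and 7 of the 8 higher ones lie within 2 log2 units of 0, and Gm5724 stands alone on the right because HIRA fl/fl AAV ctl had no counts.

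The 8 genes that were higher in WT AAV Tbg-Cre included 2 cytokine receptor genes and Usp18. Il1r1, the receptor for interleukin-1 (chromosome 1, 40225080 to 40317257), was at 29.9, 73.8 and 38.0 CPM in WT AAV Tbg-Cre males and at 16.6, 20 and 13.6 CPM in HIRA fl/fl AAV ctl males. In females Il1r1 was at 40.6, 41.6 and 35.4 CPM against 14.9, 16.1 and 22.1 CPM. Every WT AAV Tbg-Cre mouse was above every HIRA fl/fl AAV ctl mouse for Il1r1, a 2.50-fold difference (log2 1.32, standard error 0.18, adjusted p = 0.00856). Usp18, which removes the interferon-induced ISG15 tag from proteins, was 1.99-fold higher (adjusted p = 0.0154). It was at 15.7, 21 and 11.3 CPM in WT AAV Tbg-Cre males against 6.76, 5.98 and 7.12 CPM. Il15ra, the α chain of the interleukin-15 receptor, was 1.48-fold higher (adjusted p = 0.0255), and for both genes the arms did not overlap within a sex.

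Heme, glutathione and glucuronide enzymes were also among the higher genes. Ppox, an enzyme of heme synthesis, was at 42.6, 50.4 and 43.5 CPM in WT AAV Tbg-Cre males against 26.9, 25.6 and 24.1 CPM, and at 31.5, 43.7 and 36.7 CPM in WT AAV Tbg-Cre females against 28.7, 30.0 and 28.5 CPM. The arms did not overlap over the 12 mice, and the log2 fold change of Ppox was 0.60 (standard error 0.09, adjusted p = 0.0148). Gss, which makes glutathione, was at 74.6 ± 5.96 CPM (SD, n = 6) in WT AAV Tbg-Cre and 49.2 ± 10.2 CPM (SD, n = 6) in HIRA fl/fl AAV ctl (adjusted p = 0.0163). Ugt2b35, a glucuronosyltransferase, was at 278 ± 3.87 CPM against 209 ± 19.1 CPM in males and at 169 ± 30.1 CPM against 86.7 ± 8.19 CPM in females (SD, n = 3 each), with an adjusted p of 0.00856. Ugt2b35 belongs to a family of similar genes, so reads can be shared among them. The lincRNA AI463229 was 1.56-fold higher (adjusted p = 0.0414), with overlap in males.

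Gm5724, a predicted protein-coding gene on chromosome 6 (141708118 to 141773810), was counted in wildtype mice and almost absent from mice with floxed alleles. Gm5724 had 6 to 26 counts in each WT AAV Tbg-Cre mouse, 88 in all, and 0 counts in all 6 HIRA fl/fl AAV ctl mice. The 6 HIRA KO mice, which share the floxed alleles and received Cre, had 3 counts in all and at most 2 in a mouse. Against a floor of 3 counts per library, Gm5724 was at least 5.28-fold higher in WT AAV Tbg-Cre (adjusted p = 0.0135). At 0.745 CPM on average in WT AAV Tbg-Cre, it was a weakly counted gene, and reads from similar genes cannot be separated here.

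**Figure D2:**
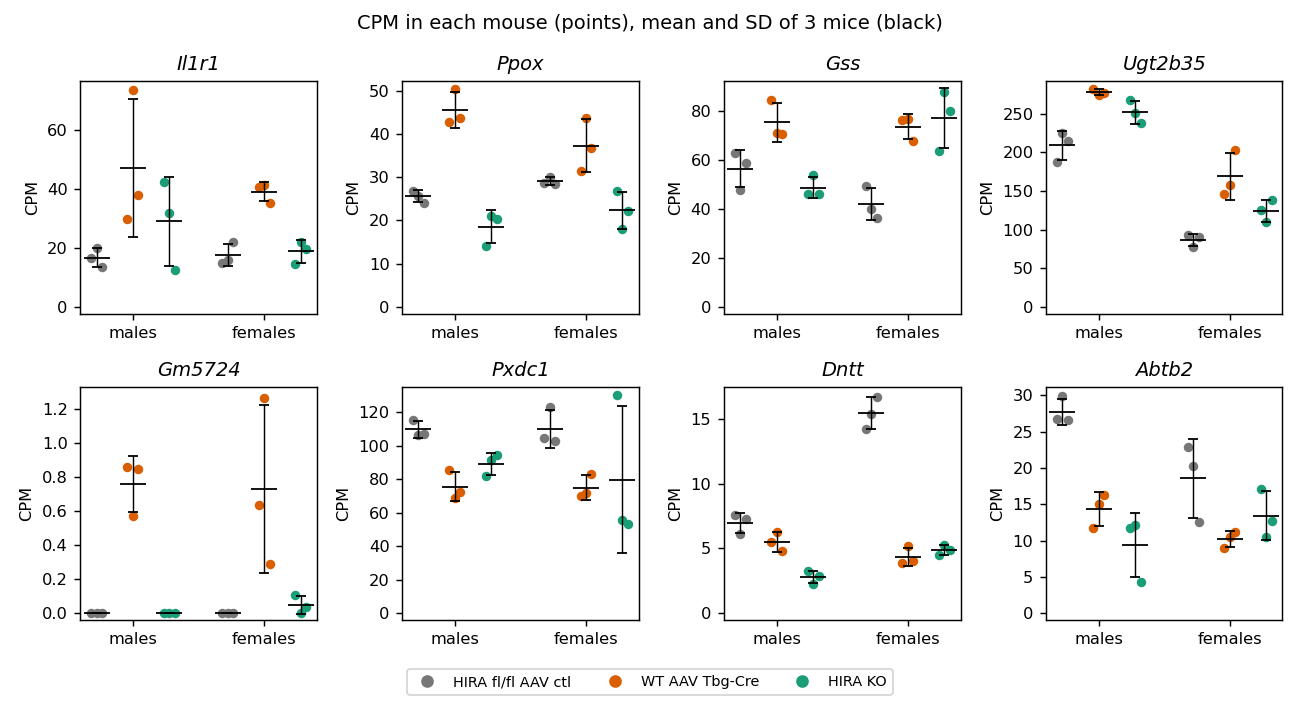
CPM of 8 genes called over both sexes, in each mouse (points) with the mean and SD of 3 mice (black), by sex and arm. HIRA KO, scaled in a separate fit, is shown beside the controls. Il1r1, Ppox, Gss and Gm5724 were higher in all 6 WT AAV Tbg-Cre mice than in all 6 HIRA fl/fl AAV ctl mice, and Pxdc1 was lower in all 6.

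The 14 lower genes were led by Dntt, the terminal transferase that adds bases to rearranging antigen receptor genes. Dntt (chromosome 19, 41029275 to 41059525) was at 3.85, 5.16 and 4.02 CPM in WT AAV Tbg-Cre females against 14.3, 15.4 and 16.8 CPM in HIRA fl/fl AAV ctl females. In males it was at 5.53, 6.30 and 4.77 CPM against 7.56, 6.14 and 7.27 CPM. The female arms lay far apart and the male arms overlapped, and the log2 fold change of Dntt was −1.08 over both sexes (adjusted p = 0.0055), −1.83 in females and −0.33 in males. The lincRNA BC049987 had the same shape, with log2 fold changes of −1.85 over both sexes (adjusted p = 0.00856), −3.06 in females and −0.65 in males.

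Other lower genes fell evenly in both sexes. Pxdc1 was at 85.3, 69.0 and 72.4 CPM in WT AAV Tbg-Cre males against 115, 107 and 107 CPM, and at 69.8, 71.7 and 83.5 CPM in females against 105, 124 and 103 CPM. No mouse of either arm crossed into the other (log2 −0.55, standard error 0.09, adjusted p = 0.0163). Mmd2 fell by 1.08 on the log2 scale in males and in females, Abtb2 by 0.95 and 0.86 and Celsr1, a cadherin of planar cell polarity, by 0.86 and 0.90, each without overlap within a sex. Hist1h1c, a linker histone, was at 19.5 ± 4.6 CPM against 29.9 ± 5.82 CPM (SD, n = 6, adjusted p = 0.0465). Most mRNA of such histone genes carries no poly-A tail, so a poly-A library counts only part of it.

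The other lower genes had varied roles. Acpp, an acid phosphatase, was at 12.1, 9.69 and 11.8 CPM in WT AAV Tbg-Cre males against 14.3, 15.7 and 12.7 CPM, and at 13.0, 13.2 and 21.2 CPM in females against 35.6, 40.5 and 40.6 CPM. The arms did not overlap within a sex (log2 −0.83, adjusted p = 0.0135). Aqp8, a water channel of the bile canaliculus, fell by 0.77 on the log2 scale (adjusted p = 0.0413). Cyp26a1, which degrades retinoic acid, was at 15.2 ± 4.34 CPM against 35.8 ± 14.2 CPM (SD, n = 6, adjusted p = 0.0417). Dct, an enzyme of melanin synthesis, fell by 1.30 (adjusted p = 0.0276) and Sh3pxd2a, a scaffold of podosomes, by 0.63 (adjusted p = 0.0413), both with overlap within 1 sex. Dct, Sh3pxd2a, Cyp26a1 and AI463229 were named after their values were seen. The remaining lower genes, Mvd and Acacb, make cholesterol precursors and malonyl-CoA and are described with their pathways.

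For some of the 22 genes the HIRA KO mice lay outside the range of both controls. Comparisons with HIRA KO would share the control mice, so only levels are given. The TMM factors of the controls came from a fit without HIRA KO, and the HIRA KO values were scaled in a separate fit. Rankings of HIRA KO against the controls therefore set differently scaled CPM side by side and are approximate. Acpp was between 0 and 4.88 CPM in the 6 HIRA KO mice and Aqp8 between 28.6 and 134 CPM, below every control mouse of either arm. Hist1h1c was between 39.2 and 124 CPM in HIRA KO, above every control mouse. Dntt was between 2.29 and 5.24 CPM in HIRA KO, within or below the range of WT AAV Tbg-Cre. Ppox was between 14.1 and 26.8 CPM in HIRA KO, below every WT AAV Tbg-Cre mouse. HIRA KO male libraries stood apart in having few genes at low counts, and 1 of them, labelled as male replicate 3, held more Hira than any control mouse (9.42 CPM).

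None of the 22 genes called over both sexes lay on chromosome 16. None of the 162 genes tested within 5 Mb of Hira passed over both sexes, and 5 of them (3.09%) had an unadjusted p under 0.05, against 8.03% of genes on other chromosomes. None of these 162 genes had arms that did not overlap within either sex. Between 5 and 20 Mb from Hira, 0 of 238 genes passed, 20 (8.4%) had an unadjusted p under 0.05 and the arms did not overlap within either sex for 5 (2.1%), against 0.937% on other chromosomes. In females alone, 1 of the 62 called genes lay in this window, Txndc11, a thioredoxin domain protein named after its values were seen. Txndc11 was at 18, 18.6 and 16.1 CPM in WT AAV Tbg-Cre females against 31.9, 24.3 and 32.3 CPM, without overlap (log2 −0.75, adjusted p = 0.0432), and at 29.2, 29.4 and 28.5 CPM against 27.8, 20.1 and 21.2 CPM in males. Its female call was lost in 6 of the 12 fits without 1 mouse. Of 20 genes listed because they vary between mouse strains or substrains, 15 were tested and none passed, and the smallest p was that of Ide.

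In females alone, 62 genes passed (0.296%), 23 higher (0.11%) and 39 lower (0.186%) in WT AAV Tbg-Cre, of which 9 were also called over both sexes. In males no gene passed by edgeR's quasi-likelihood test or by limma voom with sample weights (0%), 1551 genes had an unadjusted p under 0.05, and DESeq2 called 61. The smallest adjusted p in males was 0.0532, shared by Ighg1, Ppox, Gstm3 and Nmrk1, all higher in WT AAV Tbg-Cre (Nmrk1 was named after its values were seen). Gstm3, a glutathione transferase, was at 133, 135 and 138 CPM in WT AAV Tbg-Cre males against 72.3, 59.6 and 68.3 CPM, without overlap, and overlapped in females. Of the 62 genes called in females, 33 had the same sign in males, and the share of all genes with the same sign in both sexes is not given here. These calls rest on 3 mice against 3. The female count was 25 without HIRA fl/fl AAV ctl female replicate 2 or 3, and 13, 12 and 21 without WT AAV Tbg-Cre female replicate 1, 2 and 3. The male count was 51 without HIRA fl/fl AAV ctl male replicate 2, and 4, 18 and 6 without WT AAV Tbg-Cre male replicate 1, 2 and 3. It was also 3 without WT AAV Tbg-Cre female replicate 1. With all 18 libraries in the fit, 2 genes passed in females.

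Genes of cholesterol synthesis were lower in WT AAV Tbg-Cre females. Of 25 genes tested, all 25 had a negative log2 fold change in females and 5 were called lower (Fdps, Mvd, Pmvk, Sqle and Acat2), as were 0.186% of all genes, with a median of −0.53 against −0.01 over all genes. In 17 of the 25 every WT AAV Tbg-Cre female lay below every HIRA fl/fl AAV ctl female, as in 8.15% of all genes. In males the median was −0.14 (19 of 25 below 0) and none was called. Fdps, which makes farnesyl diphosphate, was at 41.3, 72.4 and 83.6 CPM in WT AAV Tbg-Cre females against 151, 199 and 146 CPM. In males Fdps was at 153, 155 and 151 CPM against 166, 173 and 144 CPM. The female difference was 2.51-fold (log2 −1.33, standard error 0.20, adjusted p = 0.0106), and the males overlapped. Mvd, which makes isopentenyl diphosphate (chromosome 8, 122433601 to 122443422), fell by 1.46 on the log2 scale in females (adjusted p = 0.0169) and by 0.98 over both sexes (adjusted p = 0.0221). The transcription factor Srebf2, which drives many of these genes, did not pass (log2 −0.27 in females, adjusted p = 0.775).

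Among genes of glycolysis and fatty acid synthesis, 23 of 25 were below 0 in females and 7 passed. All 25 genes tested had a negative log2 fold change over both sexes, with a median of −0.33, and Acacb was called (log2 −0.92, adjusted p = 0.0414), where 0.0668% of all genes were called lower. In females the median was −0.76, with 7 called lower (Elovl6, Acacb, Pnpla3, Fasn, Acly, Thrsp and Pklr), against 0.186% of all genes, and 15 of 25 lower without overlap, against 8.15%. In males the median was −0.16 and none was called. Acacb, whose product malonyl-CoA holds back the entry of fatty acids into mitochondria, was at 56.2, 103 and 136 CPM in WT AAV Tbg-Cre females against 253, 231 and 306 CPM. In males it was at 152, 174 and 211 CPM against 278, 251 and 187 CPM, with overlap. Elovl6, which lengthens palmitate, was at 82.2, 169 and 154 CPM in WT AAV Tbg-Cre females against 366, 487 and 679 CPM (log2 −1.92, adjusted p = 0.0212), and its male log2 fold change was 0.10. Pnpla3, a lipid droplet lipase, was at 4.47 ± 2.90 CPM against 36.0 ± 11.4 CPM in females (SD, n = 3 each, adjusted p = 0.0212). Fasn, the fatty acid synthase, fell by 1.42 on the log2 scale in females (adjusted p = 0.0229). Srebf1, which drives many of these genes, was at 255, 326 and 278 CPM against 282, 305 and 458 CPM in females, with overlap.

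Both groups of calls depended on single females. Without 1 WT AAV Tbg-Cre female, 1 or 2 of the 25 cholesterol genes and 1 or 2 of the 25 fatty acid genes were called. Without HIRA fl/fl AAV ctl female replicate 1 these were 5 and 8, without replicate 2 they were 1 and 4, without replicate 3 they were 3 and 1, and with all 18 libraries in the fit 0 and 0. The female medians moved less, between −0.62 and −0.40 for cholesterol synthesis and between −0.83 and −0.57 for fatty acid synthesis over the fits without 1 mouse. Sqle, Acat2, Srebf2, Fasn, Acly, Thrsp, Pklr and Srebf1 were named after their values were seen. The plot of CPM by sex shows the female arms apart for Fdps, Mvd, Acacb and Elovl6. In males their log2 fold changes were −0.07, −0.51, −0.42 and 0.10, and the difference between the sexes did not pass for any of the 4 (adjusted p from 0.147 to 0.414).

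The promoters of 3 of these genes are given because SREBP acts beside the factor NF-Y, whose core motif is CCAAT. Each is 250 bases before to 50 after the gene's start, 5′ to 3′ on the gene's strand, from RefSeq (GRCm38.p6), with CCAAT on either strand in capitals (ATTGG is its reverse complement). Mvd is at chr8:122443373-122443672 (minus strand), Acacb at chr5:114165268-114165567 (plus strand) and Fasn at chr11:120824498-120824797 (minus strand).
Mvd: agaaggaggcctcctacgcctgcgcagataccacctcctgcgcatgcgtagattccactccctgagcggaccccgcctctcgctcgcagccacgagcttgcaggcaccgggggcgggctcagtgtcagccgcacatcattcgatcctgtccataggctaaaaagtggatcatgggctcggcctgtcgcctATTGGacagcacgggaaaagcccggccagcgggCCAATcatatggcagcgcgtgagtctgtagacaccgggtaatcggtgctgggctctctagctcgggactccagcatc
Acacb: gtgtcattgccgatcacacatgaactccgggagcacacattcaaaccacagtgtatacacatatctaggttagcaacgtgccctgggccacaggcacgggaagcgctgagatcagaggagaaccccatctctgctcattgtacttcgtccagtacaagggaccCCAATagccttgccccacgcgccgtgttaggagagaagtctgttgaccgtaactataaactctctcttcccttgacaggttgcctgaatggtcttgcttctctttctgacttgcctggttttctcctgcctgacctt
Fasn: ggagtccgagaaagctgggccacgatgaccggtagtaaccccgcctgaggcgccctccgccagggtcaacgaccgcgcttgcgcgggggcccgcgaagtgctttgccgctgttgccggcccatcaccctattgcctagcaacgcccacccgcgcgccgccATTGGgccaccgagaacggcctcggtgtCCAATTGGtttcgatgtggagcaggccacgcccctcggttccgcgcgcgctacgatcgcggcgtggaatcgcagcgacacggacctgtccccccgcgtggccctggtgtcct
Of the 12 genes of the 2 lists called lower in females, 10 had 12 promoters in the table used, and 8 of the 12 promoters held CCAAT on at least 1 strand, as did 37.4% of all 32851 promoters of this length. None held TCACNCCAC, a sterol regulatory element in which N is any base, on either strand, and 1.24% of all promoters did. These matches describe letters in the windows, and binding was not measured here.

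Fatty acid oxidation genes were mostly above 0 in females and below 0 in males. All 30 genes tested had a positive log2 fold change in females (median 0.44), and 29 of 30 a negative one in males (median −0.24). In 21 of 30 every WT AAV Tbg-Cre female lay above every HIRA fl/fl AAV ctl female, as in 7.26% of all genes. In males 3 of 30 had every WT AAV Tbg-Cre mouse below every HIRA fl/fl AAV ctl mouse, as in 3.87% of all genes. The summed level was 13400, 13000 and 12900 CPM in WT AAV Tbg-Cre males against 17100, 12300 and 17100 CPM, so the male arms overlapped through HIRA fl/fl AAV ctl replicate 2. The male median was −0.12 without HIRA fl/fl AAV ctl male replicate 1 and −0.38 without replicate 2, and the female median was 0.27 without WT AAV Tbg-Cre female replicate 1. Cyp4a32 and Eci2 were called higher in females (0.11% of all genes were) and none was called in males. Cyp4a32, a fatty acid ω-hydroxylase, was the only gene with a significant difference between the sexes (0.00477% of genes tested). It was at 9.38, 11.2 and 10.1 CPM in WT AAV Tbg-Cre females against 2.87, 2.84 and 3.06 CPM, and at 8.01, 12.3 and 8.95 CPM in WT AAV Tbg-Cre males against 16.6, 14.6 and 10.5 CPM. The log2 fold change of Cyp4a32 was 1.81 in females and −0.51 in males, and the difference of 2.31 had an adjusted p of 0.008. Cyp4a32 has near-identical neighbours in the Cyp4a cluster, and the counts may share reads among them.

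Other Cyp4a genes had the same pattern without passing. Cyp4a10 was at 118, 76.7 and 94.0 CPM in WT AAV Tbg-Cre males against 472, 132 and 458 CPM, and at 692, 468 and 467 CPM in females against 251, 179 and 386 CPM. Neither sex overlapped, and the difference between the sexes was 2.88 on the log2 scale with an adjusted p of 0.0526. Cyp4a14 gave log2 fold changes of −2.26 in males and 1.40 in females, with the same adjusted p for their difference. Both were named after their values were seen. The number of genes with a sex difference was 30 without HIRA fl/fl AAV ctl male replicate 2, 15 and 8 without WT AAV Tbg-Cre male replicate 2 and 1, 9 without HIRA fl/fl AAV ctl female replicate 1 and 0 without HIRA fl/fl AAV ctl male replicate 1. It was 2 without HIRA fl/fl AAV ctl female replicate 2 or 3, and 3 without WT AAV Tbg-Cre male replicate 3 or female replicate 2. DESeq2 gave 132.

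**Figure D3:**
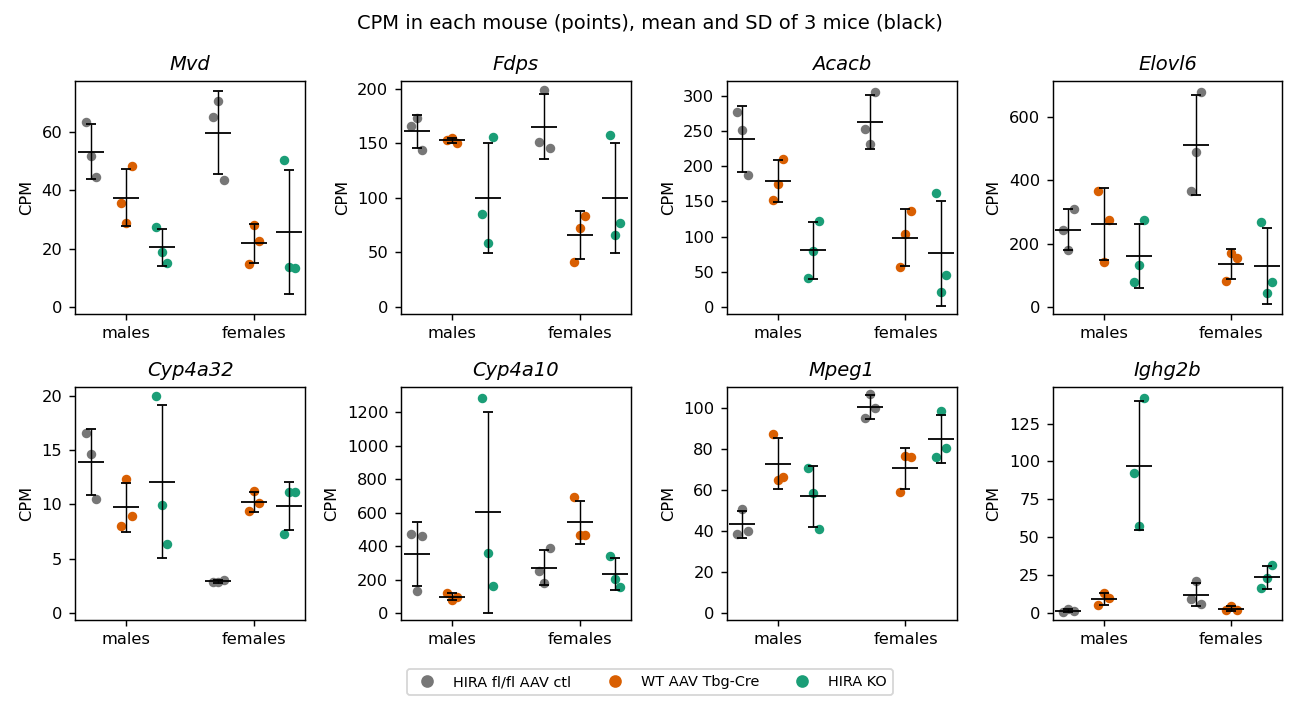
CPM of 8 genes in each mouse (points) with the mean and SD of 3 mice (black), by sex and arm. HIRA KO, scaled in a separate fit, is shown beside the controls. Mvd, Fdps, Acacb and Elovl6 were lower in WT AAV Tbg-Cre females, Cyp4a32 and Cyp4a10 were higher in these females and not in males, and Mpeg1 and Ighg2b were higher in WT AAV Tbg-Cre males and lower in females. Cyp4a10, Mpeg1 and Ighg2b did not pass in either sex or for the difference between the sexes.

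**Figure D4:**
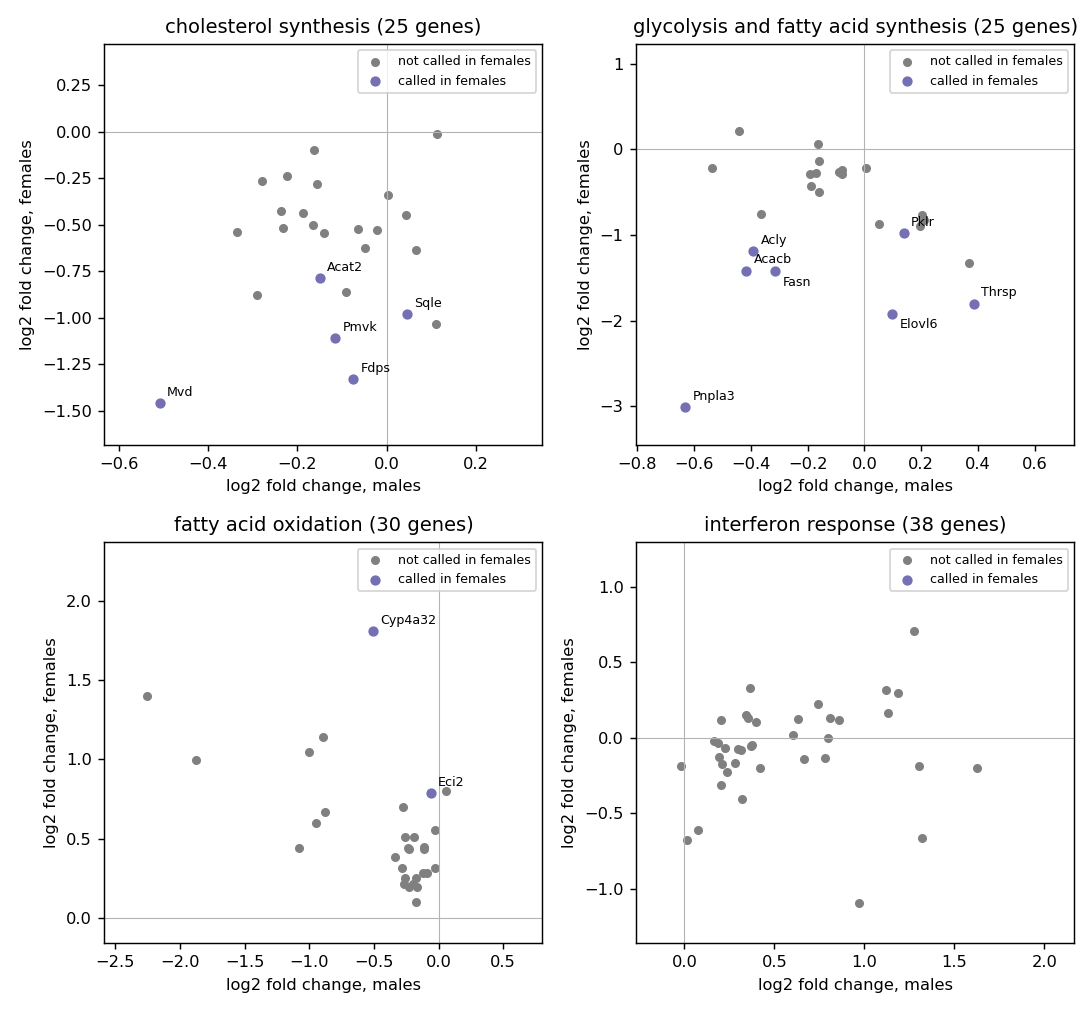
Log2 fold change in males (horizontal) against females (vertical) for each tested gene of 4 lists, with the genes called in females coloured and named. Cholesterol and fatty acid synthesis genes lie mostly below 0 in females, fatty acid oxidation genes lie above 0 in females and mostly below 0 in males, and 37 of 38 interferon genes lie to the right of 0 in males.

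Among other hepatocyte pathways, calls were few and nearly all in females. Of 37 xenobiotic genes, 4 were higher in females, as were 0.11% of all genes. They were Ugt2b35, Cyp2e1, Nr1i3, the nuclear receptor CAR (log2 0.81, adjusted p = 0.0268), and Cyp3a11 (log2 1.21, adjusted p = 0.0465). The list median was 0.20 in females and −0.09 in males. Without 1 mouse it ran from 0.11 to 0.41 in females and from −0.20 to 0.003 in males. Cyp3a11 was at 2033, 2940 and 2968 CPM in WT AAV Tbg-Cre females against 657, 1092 and 1694 CPM, without overlap. Of 25 genes of NRF2 and glutathione, Gclc and Gss were higher in females against the same 0.11% of all genes, Gclc at 303, 274 and 306 CPM against 178, 165 and 176 CPM (adjusted p = 0.0112). In males Gclc went the other way, at 328, 366 and 366 CPM against 368, 418 and 436 CPM, with a sex difference at an adjusted p of 0.0526. Of 23 bile acid genes, Cyp7a1, the rate-limiting enzyme of bile acid synthesis, and Cyp8b1, which sets the share of cholic acid, were lower in females (0.186% of all genes were), while 14 of the 23 were above 0 (median 0.15) and 7 were higher and 3 lower at an unadjusted p under 0.05. Cyp7a1 was at 28.1, 78.2 and 88.5 CPM against 329, 144 and 222 CPM (log2 −1.84, adjusted p = 0.0428) in females, and at 56.6, 95.6 and 126 CPM against 55.7, 75.3 and 46.4 CPM in males. Of the 12 fits without 1 mouse, the female call was lost in 11 for Cyp2e1, 9 for Cyp3a11, 6 for Cyp7a1, 6 for Cyp8b1, 5 for Nr1i3, 4 for Gss and 2 for Gclc.

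Interferon and immune genes were higher in WT AAV Tbg-Cre males without passing the test. Of 38 interferon genes, 37 had a positive log2 fold change in males (median 0.37) and 18 had an unadjusted p under 0.05, against 4.43% of all genes in that direction. In females 14 of 38 were positive (median −0.06). Over both sexes 32 of 38 were positive, with a median of 0.20 against 0.01 over all genes, and Usp18 was the 1 called, where 0.0382% of all genes were called higher. Ifit1, an interferon-induced RNA-binding protein named after its values were seen, was at 32.1, 22.5 and 10.3 CPM against 13.8, 8.27 and 7.69 CPM in males, and overlapped in both sexes. Of 17 antigen presentation genes, 15 were above 0 in males (median 0.18) and 0 in females (median −0.29). In females 9 of the 17 were lower at an unadjusted p under 0.05, against 4.41% of all genes. In any comparison 0 of the 17 were called, where at most 0.296% of all genes were.

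Markers of blood and resident immune cells were also mostly higher in WT AAV Tbg-Cre males. In whole liver, fewer cells of a type and less RNA per cell cannot be told apart. All 12 Kupffer cell and macrophage markers were above 0 in males (median 0.85, 11 with an unadjusted p under 0.05) and 4 of 12 in females (median −0.14). Cd5l, a Kupffer cell marker, was at 135, 43.2 and 82.5 CPM in WT AAV Tbg-Cre males against 36.4, 37.5 and 34.3 CPM (adjusted p = 0.117). The summed level of the 12 markers ranged from 211 to 606 CPM in WT AAV Tbg-Cre males against 194 to 238 CPM in HIRA fl/fl AAV ctl males, and from 461 to 539 CPM against 497 to 593 CPM in females. Of 14 T and NK cell markers, 13 were above 0 in males (median 0.96) and 2 in females (median −0.88), with sums from 8.72 to 9.53 CPM against 3.28 to 5.72 CPM in males and from 7.75 to 16.1 CPM against 14.2 to 25.8 CPM in females. Of 10 B and plasma cell markers, 9 were above 0 in males (median 1.04) and 0 in females (median −1.87), and the sums overlapped in males at 373 to 638 CPM against 214 to 448 CPM. In females the sums did not overlap, at 214 to 372 CPM against 487 to 1200 CPM. There 7 of the 10 were lower at an unadjusted p under 0.05, against 4.41% of all genes. Of 9 neutrophil markers, 7 were above 0 in males (median 1.01) and 2 in females (median −0.63), with sums between 1.55 and 10.2 CPM over the 12 mice. HIRA fl/fl AAV ctl male replicate 3, the library with counts in the fewest genes, had the lowest interferon, T and NK cell and B and plasma cell levels of the 12 mice (mean log2 CPM). Without it the male medians were 0.32 for interferon genes and 0.81, 1.05, 0.86 and 0.67 for Kupffer cell, T and NK cell, B and plasma cell and neutrophil markers. Several of these medians rested on single mice. Without WT AAV Tbg-Cre male replicate 1 the male median was 0.54 for Kupffer cell and macrophage markers and 0 for neutrophil markers. Without HIRA fl/fl AAV ctl male replicate 2 it was 1.56 for T and NK cell markers and 1.66 for neutrophil markers. The female median was −0.86 for B and plasma cell markers without HIRA fl/fl AAV ctl female replicate 2, −0.57 for T and NK cell markers without WT AAV Tbg-Cre female replicate 1 and −0.42 for neutrophil markers without HIRA fl/fl AAV ctl female replicate 3. Of 10 neutrophil markers listed, 9 were tested, and no tested marker of these 4 lists was at 0 in every mouse of an arm. Within WT AAV Tbg-Cre males the mice were not ordered alike, since replicate 2 had the lowest Kupffer cell sum (211 CPM, within the range of HIRA fl/fl AAV ctl males) and the highest mean log2 CPM over the interferon list. The part of these cells in the interferon result was not tested.

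Single immune genes showed the same crossing. Mpeg1, a macrophage pore-forming protein, was at 87.3, 64.8 and 66.6 CPM in WT AAV Tbg-Cre males against 38.8, 50.9 and 40.1 CPM, and at 59.2, 76.7 and 76.3 CPM in females against 95.2, 107 and 99.9 CPM. Neither sex overlapped, and the sex difference of −1.26 had an adjusted p of 0.0526. Ighg2b, an immunoglobulin heavy chain, was at 5.42, 13.0 and 9.60 CPM in WT AAV Tbg-Cre males against 0.45, 2.6 and 1.61 CPM, and at 1.81, 4.67 and 1.86 CPM in females against 9.43, 20.8 and 6.20 CPM. Its sex difference was −4.72 on the log2 scale, with the same adjusted p. In HIRA KO, Ighg2b was between 16.6 and 142 CPM. Ighm, the heavy chain of IgM, was the 1 marker of the B and plasma cell list called in females (log2 −2.78, adjusted p = 0.0428), where 0.186% of all genes were called lower, and it had 27.7, 85.5 and 24.6 CPM against 149, 589 and 209 CPM. The Ighm call was lost in 5 of the 12 fits without 1 mouse, with log2 fold changes from −3.59 to −1.97. Across all genes, WT AAV Tbg-Cre males lay above HIRA fl/fl AAV ctl males without overlap for 5.79%, and for 6 of the 10 B and plasma cell markers.

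The p53 and DNA damage genes, which follow DNA breaks, had 21 of 26 members above 0 over both sexes and a median of 0.11, with none called. Eda2r, a p53 target, had the smallest p in this list, at 3.80, 2.34 and 2.15 CPM in WT AAV Tbg-Cre males against 1.55, 0.884 and 0.665 CPM, and at 1.04, 3.12 and 2.58 CPM in females against 0.958, 0.657 and 0.826 CPM. The arms did not overlap within a sex, but Eda2r did not pass (log2 1.44, standard error 0.32, adjusted p = 0.114). Cdkn1a, a further p53 target named after its values were seen, overlapped in both sexes (log2 0.49, adjusted p = 0.686). Of 30 cell cycle genes, 26 were below 0 in females (median −0.61) with Mki67, a proliferation marker, called (log2 −1.43, adjusted p = 0.0455), where 0.186% of all genes were called lower. Mki67 lost its call in 8 of the 12 fits without 1 mouse. In males 14 of 30 were below 0 (median 0.02). Extracellular matrix genes had medians of −0.32 in females and 0.12 in males. In any comparison 0 of 36 were called, where at most 0.296% of all genes were. In females 31 of 36 were below 0, and 10 were lower at an unadjusted p under 0.05, against 4.41% of all genes. Without overlap, 14 of 36 were lower in females, against 8.15% of all genes. In males 24 of 36 were above 0.

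**Figure D5:**
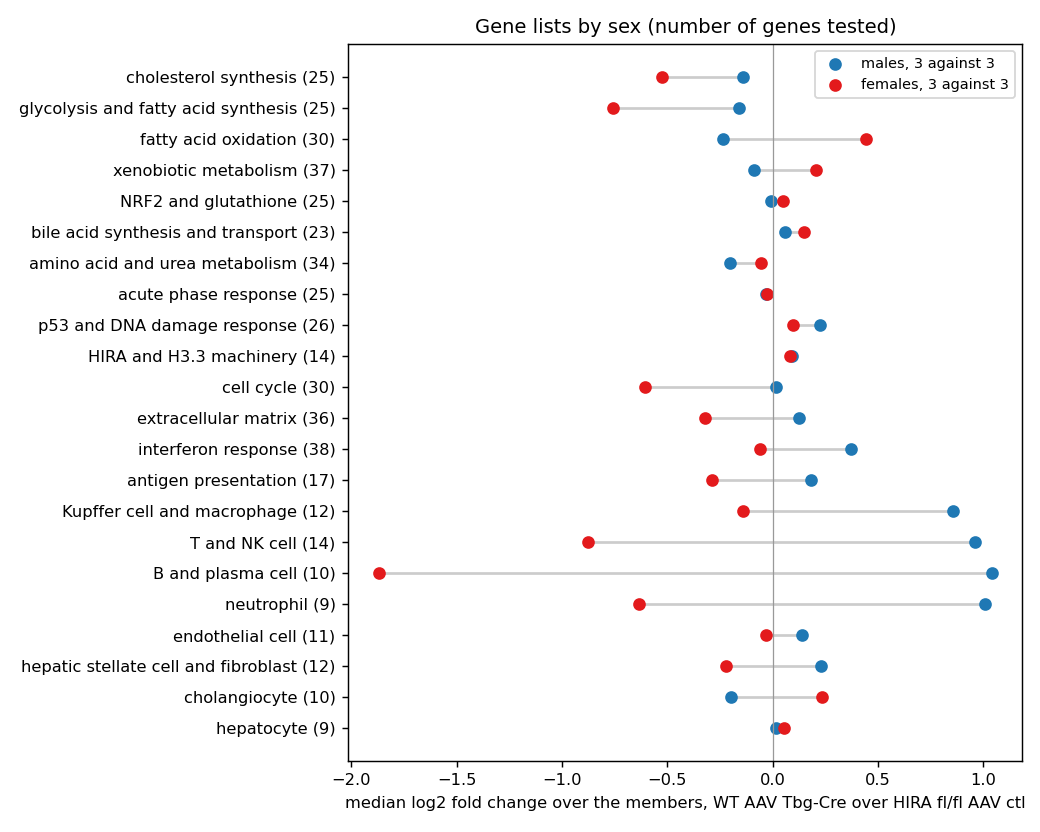
Median log2 fold change over the tested members of 22 gene lists in males (blue) and in females (red), with the number of genes tested in brackets. Cholesterol and fatty acid synthesis lie below 0 in both sexes and further in females, fatty acid oxidation and the 4 immune cell lists lie on opposite sides of 0 in the sexes, and hepatocyte markers lie near 0 in both.

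The defining markers of hepatocytes, endothelial cells, stellate cells and cholangiocytes gave no call in any comparison, where at most 0.296% of all genes were called, and 5 of 12 stellate cell and fibroblast markers were lower in females at an unadjusted p under 0.05. Hepatocyte markers had medians of 0.01 in males and 0.05 in females over 9 genes, and Alb, the main plasma protein of the liver, named after its values were seen, differed by 0.07 on the log2 scale over both sexes (adjusted p = 0.955). Endothelial markers had medians of 0.14 and −0.03, stellate cell and fibroblast markers 0.23 and −0.22 and cholangiocyte markers −0.20 and 0.23 in males and females. Without 1 mouse the cholangiocyte medians ran from −0.33 to 0.01 in males and from −0.28 to 0.62 in females. The endothelial medians ran from −0.02 to 0.29 and from −0.10 to 0.01, and the stellate cell and fibroblast medians kept their signs. Acute phase genes had medians of −0.03 in both sexes, and amino acid and urea genes were below 0 in 31 of 34 over both sexes (median −0.15), with 0 called. Of 21 circadian clock genes, which peak at different hours, 0 were called, and 4 were higher and 3 lower over both sexes at an unadjusted p under 0.05, against 8% of all genes. In males 3 were higher and 5 lower, against 7.41% of all genes. Dbp, a clock output factor, had the smallest p of these, at 62.5, 47.4 and 53.7 CPM in WT AAV Tbg-Cre males against 43.3, 10.4 and 16.6 CPM, without overlap, and it overlapped in females (log2 0.94 over both sexes, adjusted p = 0.229).

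Genes that differ by sex in the liver were checked because sex carried most of the variance. Of 21 male-biased genes, 14 were above 0 in males (median 0.37) and 6 in females (median −0.37), and of 24 female-biased genes, 9 were above 0 in males (median −0.47) and 10 in females (median −0.11), with none called over both sexes or in either sex. These medians rested on single mice. Without HIRA fl/fl AAV ctl male replicate 3 the male medians were 0.10 for male-biased and 0.05 for female-biased genes, and over all fits without 1 mouse the male-biased median ran up to 0.70. The female medians ran from −0.44 to −0.22 for male-biased and from −0.19 to 0.02 for female-biased genes. Cyp2c69, a female-biased cytochrome P450, was at 600, 607 and 447 CPM in WT AAV Tbg-Cre females against 1042, 641 and 653 CPM, without overlap. In males it was at 0.811, 0.907 and 1.24 CPM against 11.4, 1.2 and 6.79 CPM, with overlap, and Cyp2c69 did not pass over both sexes (log2 −1.61, adjusted p = 0.0781). Cyp2d9, a male-biased cytochrome P450, was at 13.2, 14.8 and 16.4 CPM in WT AAV Tbg-Cre females against 5.24, 8.67 and 10.4 CPM, without overlap, and overlapped in males (log2 0.67 over both sexes, adjusted p = 0.115).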

How the data were processed

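RNA-seq was performed by the authors on whole liver. Per the labels and the study's methods, reads were aligned to mm10 and summarised per gene, and the deposited values were raw counts per gene, with 1 library per mouse. The submitters' processing notes name STAR, HTSeq and Cufflinks, the study's methods name HOMER for counting, and the counting strand was not given in the sources used here. Of 55421 gene IDs, 55240 matched GENCODE M21.

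Samples were grouped by the labelled genotype, virus and sex. Genes with at least 10 counts over the 12 control libraries were tested with edgeR 4.0.16 (TMM, quasi-likelihood, 4 group means, Benjamini-Hochberg adjusted p under 0.05) in R 4.3.3. DESeq2 1.42.0 and limma 3.58.1 (voom) were alternatives, beside other filters, other designs and leaving out each library. Libraries of 1 group differed by more than sampling noise (19 to 57.3 in chi-square per gene). The p-values set the difference between the arms against the spread between mice of a group.

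The members and the 37 gene lists were chosen with earlier results of these data known. Named genes were Hira, the genes called over both sexes with the largest change and no overlap (10 each way) or the smallest adjusted p (5 each way), up to 3 called members of each list or else the member with the smallest p, and the 3 genes with the smallest adjusted p in males, in females and for the sex difference. All others were chosen after their values were seen. Counting strand and shared reads limit overlapping and similar genes.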

Additional observations from a re-analysis of the deposited data

Results flagged for a closer look

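The effect of the arm on Cyp4a32 differed between the sexes. The difference, females minus males, was 2.31 on the log2 scale (edgeR interaction term, adjusted p = 0.008), with the gene higher in 3 of 3 WT AAV Tbg-Cre females than in any HIRA fl/fl AAV ctl female and with overlap in males. Over the alternatives its adjusted p ran from 6.06e-11 to 0.252, and the call was lost without HIRA fl/fl AAV ctl male replicate 1 and with all 18 libraries in the fit.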

How the results depend on the processing

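The numbers of calls depended on the fit, and the cause was not tested. Past the fold threshold over both sexes, 7 genes became 18 with DESeq2, 82 with no filter, 4 with additive sex, 0 with no sex, 1 with all 18 libraries, 39 with the replicate block and 3 at an adjusted p of 0.01, and 4 to 20 without 1 library. By adjusted p alone, 22 became 159, 385, 9, 0, 2, 167 and 4 in the same order, 38 with limma voom, and 5 to 61 without 1 library. In males, 0 became 61 with DESeq2, 298 with no filter and 107 with the replicate block, and 0 to 51 without 1 library. In females, 62 became 223 with DESeq2, 455 with no filter, 2 with all 18 libraries, 151 with limma voom, 243 with the replicate block and 5 at an adjusted p of 0.01, and 12 to 79 without 1 library. The sex difference, 1 gene, became 132, 431, 0, 2 and 174 under the first 5 of these, and 0 to 30 without 1 library. Deviations of same-numbered mice had correlations from −0.0176 to 0.102, with 1 of 6 over 0.1. These were 0.0395, 0.0308 and 0.0416 in females and −0.0131, 0.102 and −0.0176 in males. Of the 12 libraries, 8 correlated best with their own number. Whether the numbers pair the mice was not tested, and the main fit treats them as unpaired. The log2 fold change of Hira, −0.01, turned to 0.064 with limma voom and 0.019 with the replicate block, and lay between −0.134 and 0.15 without 1 library, at adjusted p from 0.858 to 1. DESeq2's size factors within edgeR and edgeR's own filter kept each count within 1.5 times. Of 462 refits of the 22 genes over both sexes, 313 kept the call, 149 lost it and none reversed; of 1178 of the 62 in females, 807 kept it, 371 lost it and none reversed. Counts over whole lists rest on 3 mice per arm and sex, and genes under about 1 CPM, such as Gm5724, on few reads.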
